A study of Mus musculus with 6 samples.

Results

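The expression of 40 genes of mitosis and DNA replication was examined in the whole brain of mouse embryos lacking Bahd1. The genes were chosen by symbol, from the D cyclins that start the cycle to the motors and scaffolds of the spindle, and all 40 were found among the 53801 genes of the count table. All 40 had enough reads to be tested, among 24739 genes tested. The 40 genes were read in 8 groups by role, and 89 other cell cycle genes were kept as a wider list.

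RNA-seq of polyadenylated transcripts had been performed on 3 Bahd1-KO and 3 Bahd1-WT embryos, taken at E16.5 from the C57BL/6 strain. The Bahd1-KO embryos were homozygous (Bahd1-/-), bred from heterozygous Bahd1-Het1 mice, and the Bahd1-WT embryos were wild type (Bahd1+/+). Each library was made from RNA of a whole brain, so that dividing cells, neurons and the covering tissues were read together. The comparison asked whether loss of BAHD1, a scaffold protein of repressive chromatin complexes, changed transcript levels in the brain before birth.

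A cell that divides first copies its DNA and then separates the copies. D cyclins release E2F factors, which switch on the genes of S phase; the origin licensing factors load the MCM helicase on DNA, and polymerases follow with the sliding clamp PCNA. Genes of G2 and mitosis come on later, through FOXM1, B-MYB and the MuvB complex, and their products build the spindle and the kinetochore. In the fetal brain these transcripts belong mainly to progenitors of the ventricular and subventricular zones, while neurons have left the cycle.

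The promoter sequences of the mitosis genes and the replication genes differed in the motifs they held. RefSeq windows (GRCm38.p6), from 250 bases before to 50 bases after the start of the gene, were found for 31 of the 40 genes, 18 of the 23 mitosis genes and 13 of the 15 replication genes, the D cyclins being counted in neither set. The cell cycle genes homology region (CHR), searched as TTTGAA or TTCGAA on both strands, lay in the window of 14 of 18 mitosis genes (77.8%) and of 2 of 13 replication genes (15.4%), against 21.7% of all genes with a window. An E2F site, searched as TTTCCCGC, TTTGGCGC or TTTCGCGC on both strands, lay in that of 6 of 13 replication genes (46.2%) and 1 of 18 mitosis genes (5.56%), against 2.12% of all. The CCAAT box, searched as CCAAT on both strands, lay in that of 88.9% of the mitosis genes, 61.5% of the replication genes and 41.1% of all. A match is a run of letters and not a bound site. The 250 bases before the start are shown for Mki67 and Bub1b, as mitosis genes with a CHR and a CCAAT box, and for Mcm6, a helicase gene with E2F sites and CCAAT boxes. They run 5′ to 3′ on the strand of the gene, with the matched letters in capitals. The Mki67 stretch is chr7:135716380-135716629 (minus strand), the Bub1b stretch chr2:118597961-118598210 (plus strand) and the Mcm6 stretch chr1:128359706-128359955 (minus strand).
Mki67: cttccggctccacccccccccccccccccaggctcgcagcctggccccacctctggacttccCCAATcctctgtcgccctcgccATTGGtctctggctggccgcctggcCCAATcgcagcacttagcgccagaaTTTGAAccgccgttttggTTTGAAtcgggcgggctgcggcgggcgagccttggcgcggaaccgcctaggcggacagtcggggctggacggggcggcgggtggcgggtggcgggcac
Bub1b: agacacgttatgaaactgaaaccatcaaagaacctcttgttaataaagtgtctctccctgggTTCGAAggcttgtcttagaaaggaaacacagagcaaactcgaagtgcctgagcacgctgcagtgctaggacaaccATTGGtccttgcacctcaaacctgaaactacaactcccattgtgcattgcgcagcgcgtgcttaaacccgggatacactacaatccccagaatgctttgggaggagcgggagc
Mcm6: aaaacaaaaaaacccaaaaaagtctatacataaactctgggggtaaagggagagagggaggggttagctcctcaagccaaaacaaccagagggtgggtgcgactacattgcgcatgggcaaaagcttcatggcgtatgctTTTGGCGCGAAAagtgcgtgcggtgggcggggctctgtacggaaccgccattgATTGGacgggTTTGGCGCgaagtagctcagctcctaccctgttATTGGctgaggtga
Mki67 held both of its CHR matches close together, at positions -116 and -98 from the start, behind 3 CCAAT boxes. Bub1b held a CHR match at -188, ahead of its CCAAT box at -113, and another at position 41, past the stretch shown. In Mcm6 a pair of E2F matches on opposite strands overlapped, at positions -110 and -106, and a further one lay at -47.

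Bahd1 itself was read first, as a check of the labels. Bahd1-KO replicates 1 to 3 held 2, 10 and 6 of its reads, Bahd1-WT replicates 1 to 3 held 1971, 3102 and 3470, and the log2 fold change was -8.40 (SE 0.606, edgeR adjusted p = 0.0462), a call that was lost when any embryo other than Bahd1-KO replicate 3 was left out. The libraries held 61724000 to 91782802 counts. Bahd1-KO replicate 3 stood apart: protein-coding genes took 53.5% of its counts, against 97.8 to 98.4% in the other 5 embryos, and ribosomal RNA genes took 44.7%, against 0.249 to 0.614%. Markers of lung and skeletal muscle and most markers of connective tissue were higher in this library than in the others, and 6 of 8 markers of neurons were lower. The summed level of 6 lung markers was 1470 in it, 12.1 in Bahd1-KO replicate 2 and 0.397 to 0.743 in the rest, in CPM with library sizes scaled by TMM factors (scaled CPM), the unit used for levels throughout. Lung surfactant transcript Sftpc was at 828 in this embryo and was listed at 0 in Bahd1-WT replicate 1. The 8 neuron markers summed to 1988, against 8275 to 10080. Of these, Snap25 went the other way, at 910 in this embryo and 154 to 285 in the other 5, and Rbfox3 lay within their range. Fold changes and medians are therefore also given without this embryo.

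None of the 40 genes passed the test between genotypes (0 called higher, 0 called lower). The adjusted p-values of edgeR ran from 0.696 to 0.978 over the 40, and 0 had an unadjusted p under 0.05, where 4.67% of all genes tested did. Bahd1 was the 1 gene called among all those tested (0.00404%). For 0 of the 40 did the 3 Bahd1-KO embryos lie wholly above or below the 3 Bahd1-WT embryos, a separation seen for 6.71% of all genes. Fitted values lay above 0 for 29 genes (72.5%, against 53.8% of all genes) and below 0 for 11, with a median log2 fold change of 0.42 for the 40 and 0.060 for all genes. Without Bahd1-KO replicate 3 the split was 21 against 19 (52.5%, against 49.2% of all genes), the median was 0.010, and 0 of the 40 passed (0.0171% of all genes), with the smallest adjusted p at 0.981 and 0 at an unadjusted p under 0.05 (1.48% of all genes). Fold changes then ran from -0.60 to 0.27, and 10 genes had changed sign: Ccnd2 from below 0 to above, and Cdc6, Mcm3, Mcm6, Tyms, Ccnb2, Aurkb, Birc5, Bub1b and Kif20a from above 0 to below. With Bahd1-KO replicate 2 left out instead, which kept the library that stood apart, 12 of the 40 did not overlap between genotypes (30%, against 36.7% of all genes), 11 had an unadjusted p under 0.05 (27.5%, against 20.2%) and 0 passed the adjusted threshold. The median SE of a log2 fold change was 0.39 with 6 embryos and 0.27 with 5, which sets the size of difference that could be seen. In whole-brain RNA, a change in the number of dividing cells and a change in RNA per cell cannot be told apart.

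**Figure D1:**
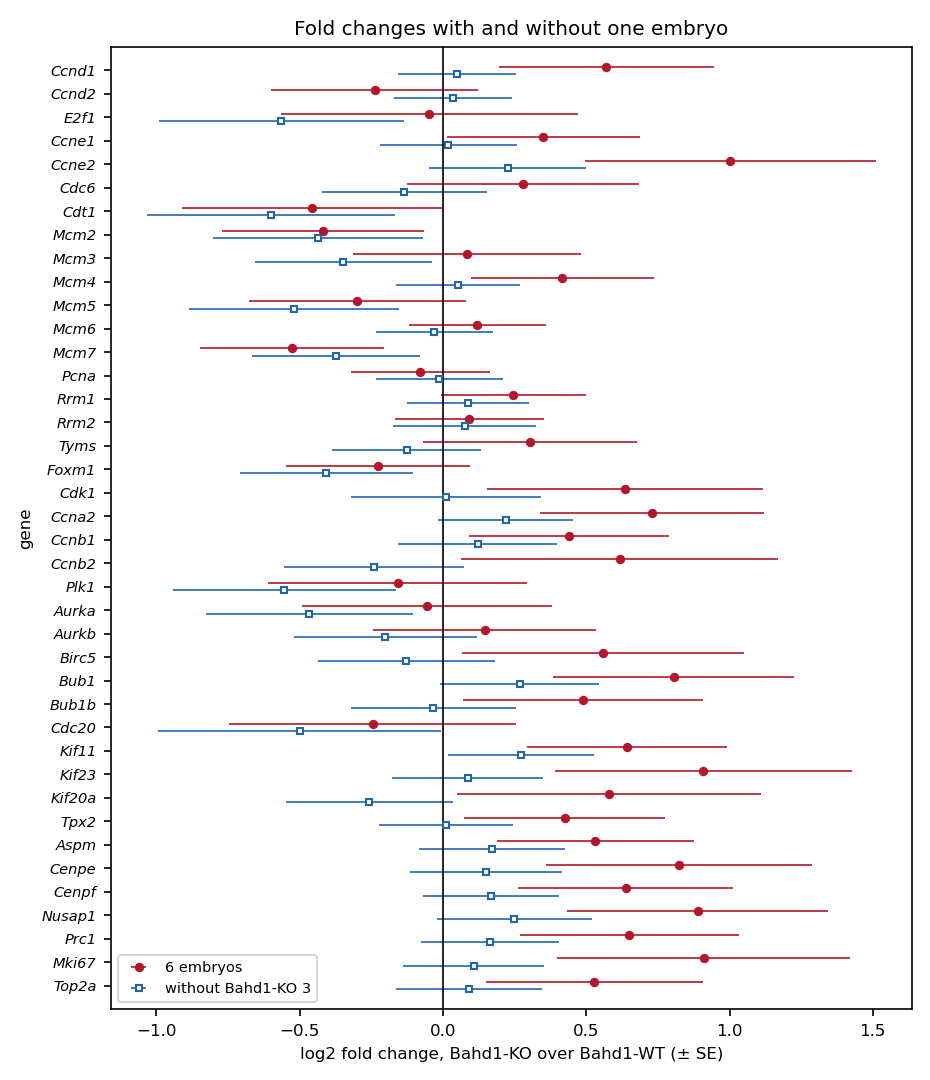
Log2 fold change of Bahd1-KO over Bahd1-WT (horizontal axis, ± SE) for each of the 40 genes (vertical axis, in order of role), from 6 embryos (filled circles) and from 5, without Bahd1-KO replicate 3 (open squares). The circles lie above 0 for 29 genes and the squares for 21, around a median of 0.010.

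The levels of the 40 genes spanned a wide range in normal brain. Per kilobase of exon, the mean level in Bahd1-WT embryos (scaled CPM divided by exon length) was highest for Ccnd2 at 44.9, followed by Mki67 at 19.1 and Pcna at 19.0. The lowest were the licensing factors Cdc6 at 1.21 and Cdt1 at 1.36. Among the 6 subunits of the MCM helicase, which sit in a ring in equal numbers, the level ran from 4.11 for Mcm2 to 14.5 for Mcm6. Exon length was that of all annotated exons of a gene, overlaps counted once, so these levels also depend on the annotation. Mcm2 and Mcm5 were at 28.6 and 26.6 scaled CPM in Bahd1-WT, over 6956 and 3993 bases of exon.

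Of the 2 D cyclins, which activate the kinases CDK4 and CDK6, Ccnd2 was the more abundant in normal embryos, at 44.9 scaled CPM per kilobase of exon against 10.7 for Ccnd1. Ccnd1 was at 49.2, 55.5 and 119 scaled CPM in Bahd1-KO replicates 1 to 3 and at 44.8, 49.1 and 56.7 in Bahd1-WT replicates 1 to 3 (log2 fold change 0.57, SE 0.37, adjusted p = 0.696). Ccnd2 was at 507, 368 and 199 in Bahd1-KO and at 384, 417 and 467 in Bahd1-WT (-0.24, SE 0.36, adjusted p = 0.826). Bahd1-KO replicate 3 was thus the highest embryo for Ccnd1 and the lowest for Ccnd2. The ratio of the Ccnd2 count to the Ccnd1 count, which does not depend on the scaling of a library, was 1.67 in that embryo and between 6.63 and 10.3 in the other 5. Without it the fold changes of Ccnd1 and Ccnd2 were 0.049 and 0.034.

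The next 5 genes act at the entry into S phase and the licensing of origins, namely E2f1, the E cyclins Ccne1 and Ccne2, and Cdc6 and Cdt1, which load the helicase. Their median log2 fold change was 0.28, with 3 of 5 above 0, and -0.14 without Bahd1-KO replicate 3, with 2 of 5. Ccne2 had the smallest unadjusted p of the 40. Bahd1-KO replicates 1 to 3 were at 22.6, 15.7 and 58.9 for it, against 18.8, 12.5 and 17.2 in the Bahd1-WT embryos, a log2 fold change of 1.00 (SE 0.51, unadjusted p = 0.0878 and adjusted p = 0.696 by edgeR). It was 0.23 without Bahd1-KO replicate 3, and 0.25 with all 6 embryos after a correction of each library for GC content. The first of the Bahd1-KO embryos was slightly above the Bahd1-WT embryos, the next lay within their range, and replicate 3 was 3.39 times the mean of the other 5. E2f1, Ccne1, Cdc6 and Cdt1 ran from -0.46 for Cdt1 to 0.35 for Ccne1, which were -0.60 and 0.019 without that embryo.

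The MCM subunits, which unwind DNA at the fork, were the group with the lowest median (-0.11, with 3 of 6 above 0, and -0.36 with 1 of 6 above 0 without Bahd1-KO replicate 3). Mcm6, the subunit with the highest level and the one whose E2F matches are shown above, was at 69.5, 64.4 and 87.0 in Bahd1-KO and at 60.6, 63.7 and 79.0 in Bahd1-WT (0.12, SE 0.24, adjusted p = 0.868). The ranges of the genotypes overlapped over most of their width. Mcm7 was at 44.1, 50.4 and 32.2 in Bahd1-KO and at 41.5, 60.2 and 80.7 in Bahd1-WT (-0.53, SE 0.32, adjusted p = 0.696). Here replicate 3 of Bahd1-KO was the lowest and replicate 3 of Bahd1-WT the highest, and replicate 1 of both genotypes lay close together. Without Bahd1-KO replicate 3 the fold changes of Mcm6 and Mcm7 were -0.031 and -0.37. The subunits did not move as a block in Bahd1-KO replicate 3: its level over the mean of the other 5 embryos was 0.581 for Mcm7, 0.844 for Mcm2, 1.74 for Mcm3 and 1.87 for Mcm4.

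At the fork, the median was 0.17, with 3 of 4 above 0, and 0.031 with 2 of 4 above 0 without Bahd1-KO replicate 3, over Pcna, the subunits Rrm1 and Rrm2 of ribonucleotide reductase, which makes deoxynucleotides, and Tyms, the thymidylate synthase. Rrm1 was at 141, 107 and 162 in Bahd1-KO and at 112, 101 and 133 in Bahd1-WT (0.25, SE 0.25, adjusted p = 0.749, and 0.089 without Bahd1-KO replicate 3). Pcna was between 38.3 and 55.1 in all 6 embryos, with a fold change of -0.079, and -0.013 without that embryo. These were among the steadiest of the 40 genes: outside Bahd1-KO replicate 3, the highest embryo was 1.40 to 1.49 times the lowest in this group, against a median of 1.78 over the 40.

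Another 7 genes drive the entry into mitosis, among them Foxm1, Cdk1 with its cyclins, and the kinases Plk1 and Aurka. Their median was 0.44, with 4 of 7 above 0, and -0.24 with 3 of 7 above 0 without Bahd1-KO replicate 3. Ccna2, the cyclin of S phase and G2, was at 94.8, 68.2 and 182 in Bahd1-KO and at 68.3, 56.9 and 82.5 in Bahd1-WT (0.73, SE 0.39, adjusted p = 0.696). The first of the Bahd1-KO embryos lay above the Bahd1-WT range, the next inside it and the last far above. Without Bahd1-KO replicate 3 the fold change of Ccna2 was 0.22. Cdk1 and Ccnb2 gave 0.64 and 0.62, and Foxm1, Plk1 and Aurka gave -0.23, -0.16 and -0.057. Without that embryo these 5 genes gave, in the same order, 0.010, -0.24, -0.41, -0.55 and -0.47.

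Checkpoint and anaphase genes comprised Bub1 and Bub1b, whose kinases hold anaphase until chromosomes are attached, the passenger proteins Aurkb and Birc5, and Cdc20, the activator of the anaphase-promoting complex. Bub1 was at 32.6, 21.4 and 62.2 in Bahd1-KO and at 22.6, 17.3 and 26.5 in Bahd1-WT (0.81, SE 0.42, adjusted p = 0.696). Bub1b was at 29.8, 28.1 and 65.8 in Bahd1-KO and at 22.3, 25.6 and 40.3 in Bahd1-WT (0.49, SE 0.42, adjusted p = 0.708). For Bub1, Bahd1-KO replicates 1 and 3 lay above every Bahd1-WT embryo, and for Bub1b replicate 3 did. Without replicate 3 the fold changes of Bub1 and Bub1b were 0.27 and -0.034. The median of the 5 genes was 0.49 with 4 above 0, and -0.13 with 1 above 0 without that embryo.

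All 9 genes of the spindle, the kinetochore and cytokinesis had fitted values above 0, with a median of 0.64, and 8 of 9 did without Bahd1-KO replicate 3, with a median of 0.17. They are the kinesins Kif11, Kif20a and Kif23, the spindle proteins Tpx2, Aspm, Nusap1 and Prc1, and the kinetochore proteins Cenpe and Cenpf. Cenpf was at 94.5, 61.2 and 164 in Bahd1-KO and at 72.3, 58.9 and 74.1 in Bahd1-WT (0.64, SE 0.37, adjusted p = 0.696). Nusap1, which bundles microtubules, was at 65.2, 42.0 and 140 in Bahd1-KO and at 44.6, 34.6 and 54.2 in Bahd1-WT (0.89, SE 0.46, adjusted p = 0.696). In both genes Bahd1-KO replicates 1 and 3 were above all Bahd1-WT embryos and replicate 2 was among them. Without replicate 3 the fold changes of Cenpf and Nusap1 were 0.17 and 0.25.

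Mki67, which coats mitotic chromosomes and serves as the usual marker of dividing cells, was at 268, 151 and 663 in Bahd1-KO and at 191, 188 and 198 in Bahd1-WT (0.91, SE 0.51, adjusted p = 0.696). The Bahd1-WT embryos were nearly equal (192 ± 5.10, SD, n = 3), while the Bahd1-KO embryos lay on both sides of them (361 ± 268, SD, n = 3). Top2a, the topoisomerase that untangles sister chromosomes, gave 0.53. Without Bahd1-KO replicate 3 the fold changes of Mki67 and Top2a were 0.11 and 0.092.

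**Figure D2:**
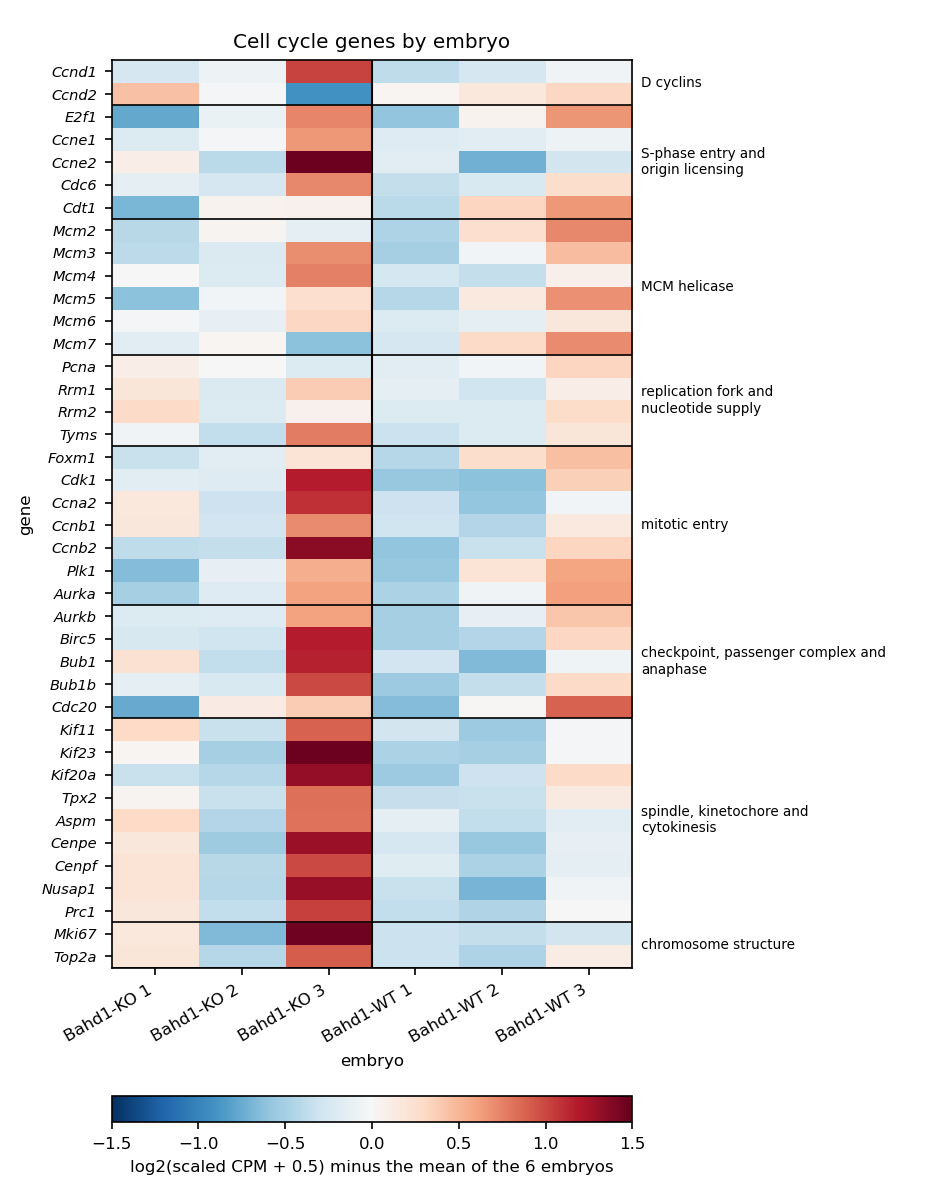
Level of the 40 genes (rows, grouped by role) in each of the 6 embryos (columns), as log2(scaled CPM + 0.5) minus the mean of the 6 embryos, with red above and blue below it. The column of Bahd1-KO replicate 3 is the highest of its row for 29 genes and the lowest for 3 (Ccnd2, Mcm7 and Pcna).

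Bahd1-KO replicate 3 was the highest of the 6 embryos for 29 of the 40 genes (72.5%), as it was for 38.1% of all genes tested, and the lowest for 3, as it was for 36.4% of all. Its level over the mean of the other 5 had a median of 1.89 and ran from 0.464 for Ccnd2 to 3.39 for Ccne2. The median ratio was 1.40 for the D cyclins, 1.78 for S-phase entry and licensing, 1.23 for the MCM helicase and 1.20 at the fork, 1.80 for mitotic entry, 2.25 for checkpoint genes, 2.31 for spindle genes and 2.72 for Mki67 and Top2a. Over the 23 mitosis genes it was 2.27 and over the 15 replication genes 1.36. At least a 2-fold excess over every other embryo was found for 8 of the 40 (20%), close to the 21.3% of all genes. These counts depend on how the library is scaled: with total counts, in which the ribosomal RNA takes part, this embryo was the highest for 17 and the lowest for 6, with a median ratio of 1.20, and with protein-coding totals it was the highest for 31 and the lowest for 2, with a median ratio of 2.20.

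In Bahd1-KO replicate 3 most of the cell cycle genes were high in scaled CPM and most progenitor markers were low, though neither set moved as a block. Sox2, a transcription factor of neural progenitors, was at 99.8, 89.8 and 14.0 in Bahd1-KO and at 83.5, 60.7 and 91.9 in Bahd1-WT. Eomes, which marks intermediate progenitors, was at 98.6, 68.6 and 5.23 in Bahd1-KO and at 57.1, 73.4 and 105 in Bahd1-WT. The count of Mki67 was 47.4 times that of Sox2 in Bahd1-KO replicate 3 and 1.69 to 3.09 times in the other 5. Against Pax6 the ratio was 61.4, compared with 2.91 to 5.25, and against Fabp7, of radial glia, it was 45.2, compared with 0.272 to 0.466. These ratios set Mki67, at 3.33 times the mean of the other 5 (median of the 40 genes 1.89), against markers that were low in this embryo. Of 10 progenitor markers outside the cell cycle, this embryo was the lowest for 7 and the highest for Hes1 and Vim, and their summed level was 856 against 1310 to 1581.

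Most markers of other tissues were high in the same embryo. Bahd1-KO replicate 3 was the highest embryo for 6 of 6 lung markers, for 7 of 7 of skeletal muscle, with a summed level of 79.3 against 2.32 to 11.7, and for 6 of 7 of meninges and connective tissue, with 2276 against 382 to 471. Cartilage markers summed to 59.0 against 14.0 to 39.5, and microglial markers to 71.5 against 40.8 to 60.8. For erythroid blood, choroid plexus and liver the summed levels in this embryo were 412, 339 and 9.79, against 132 to 589, 350 to 826 and 0.794 to 32.1 in the others. The part of these tissues in the cell cycle levels of this embryo was not tested. Without the embryo, the cell cycle genes gave the 21 to 19 split above.

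**Figure D3:**
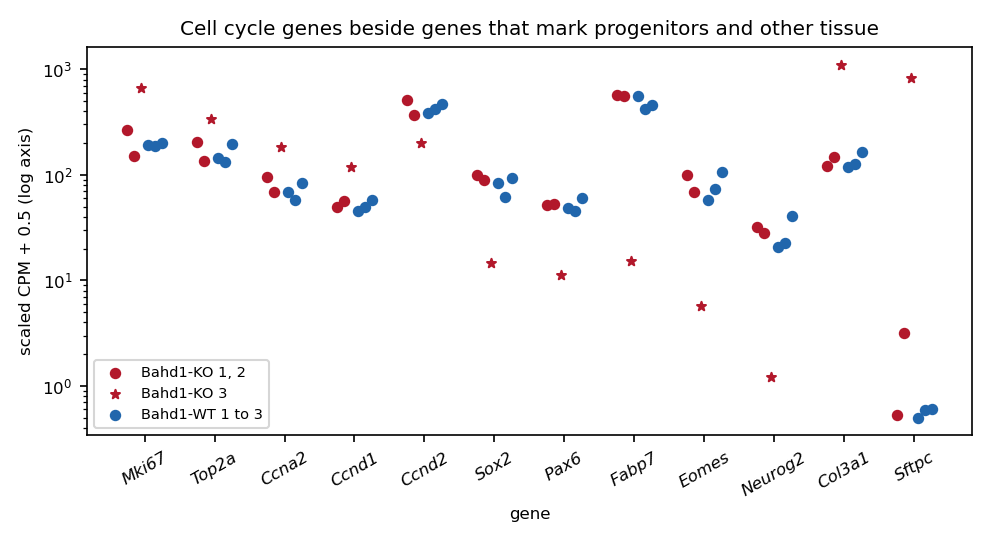
Level of 5 cell cycle genes, 5 progenitor markers, Col3a1 of connective tissue and Sftpc of lung (horizontal axis) as scaled CPM + 0.5 on a log axis, with 1 point per embryo. Bahd1-KO replicate 3 (stars) lies above the other embryos for Mki67, Top2a, Ccna2 and Ccnd1 and below them for Ccnd2 and the 5 progenitor markers shown. These 5 come from a list of 10, for which this embryo was the lowest for 7 and the highest for 2 (Hes1 and Vim, not shown).

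The remaining embryos also differed within a genotype, in the level of the list and along the GC content of the transcripts. The median over the 40 genes of the log2 level minus the mean of the 6 embryos was 0.224 in Bahd1-WT replicate 3. It was -0.338 and -0.305 in Bahd1-WT replicates 1 and 2, and -0.0335 and -0.223 in Bahd1-KO replicates 1 and 2. Bahd1-WT replicate 3 was the highest of the 6 embryos for 9 of the 40 genes and the lowest for 0. The 40 genes run from 36.3% GC for Ccne2 to 58.3% for E2f1. Across the 40, the Spearman correlation of GC content was -0.90 with the log2 level of Bahd1-KO replicate 1 minus replicate 2, and -0.88 with that of Bahd1-WT replicate 1 minus the mean of replicates 2 and 3. Over 24703 genes tested these correlations were -0.67 and -0.67. The points share the same libraries and genes are not independent. Among the 20 genes of lower GC, Bahd1-KO replicate 1 was above replicate 2 for 20, and among the 20 of higher GC for 6. The log2 fold change without Bahd1-KO replicate 3 followed the same order, with a correlation of -0.91, and lay above 0 for 17 genes of lower GC and for 4 of higher GC. Spindle genes are low in GC, with a median of 43.3%, and MCM genes higher, with 51.8%, so that role and GC content moved together in this list. After the correction of each library for GC, 33 of the 40 lay above 0 with all 6 embryos (49.9% of all genes), with a median of 0.27, and 0 passed the test. With the correction and without Bahd1-KO replicate 3, 9 of the 40 lay above 0, where 47.8% of all genes did. The median was -0.074, against -0.011 for all genes, the range ran from -0.39 to 0.18, and 0 passed the test. The spindle median then was -0.023 and the MCM median -0.16.

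**Figure D4:**
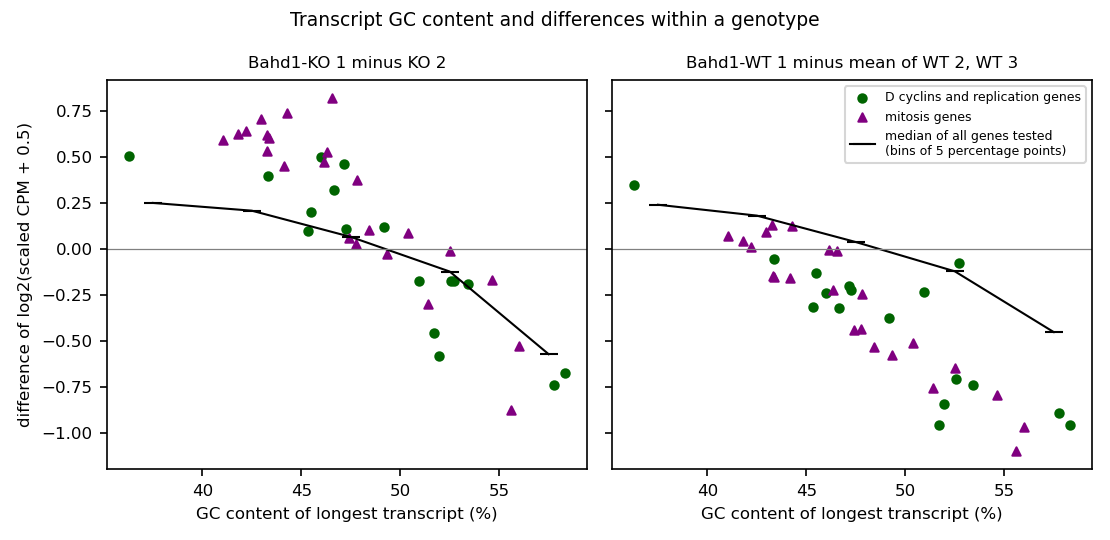
Difference in log2(scaled CPM + 0.5) between embryos of the same genotype (vertical axis) against the GC content of the longest transcript in percent (horizontal axis), for Bahd1-KO replicates 1 and 2 (left) and Bahd1-WT replicate 1 against replicates 2 and 3 (right). Each point is 1 of the 40 genes, the line joins medians of all genes tested, and the points fall as GC content rises in both panels (Spearman correlation -0.90 and -0.88).

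Some of the genes lie near Bahd1, at chr2:118900377-118924528 on the plus strand of GRCm38. Bub1b ends 0.259 Mb before it and Nusap1 starts 0.694 Mb after it, and Knl1 of the wider list, a scaffold of the kinetochore, starts 0.123 Mb after it. Their log2 fold changes were 0.49, 0.89 and 0.96, the genotypes overlapped for all of them, and without Bahd1-KO replicate 3 they were -0.034, 0.25 and 0.43.

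The wider list gave a like result. Of its 89 genes, 61 were above 0 and 28 below, with a median of 0.28, 0 passed the test (adjusted p from 0.696 to 0.999) and 0 had an unadjusted p under 0.05. Kinetochore genes and genes of condensin, cohesin and the spindle had medians of 0.59 and 0.63, with 12 of 15 and 15 of 18 above 0, and replication polymerases had a median of -0.13, with 5 of 14. Without Bahd1-KO replicate 3 the kinetochore and condensin groups had medians of 0.14 and 0.056, with 9 of 15 and 10 of 18 above 0, and the polymerases -0.20, with 4 of 14. With the GC correction as well, the first pair of medians was -0.060 and -0.072, with 4 of 15 and 4 of 18 above 0. The smallest unadjusted p-values among those above 0 belonged to Hmmr (1.12, edgeR unadjusted p = 0.0637), a microtubule-binding protein, and Smc4 (1.04, edgeR unadjusted p = 0.0642), a condensin subunit. Among those below 0 they belonged to Ncapd2 (-0.53, edgeR unadjusted p = 0.139), also of condensin, and Pkmyt1 (-1.02, edgeR unadjusted p = 0.142), the kinase that restrains CDK1. Without Bahd1-KO replicate 3, Hmmr, Smc4, Ncapd2 and Pkmyt1 gave 0.31, 0.36, -0.47 and -0.80, and 45 genes of the list were above 0 and 44 below. With Bahd1-WT replicate 3 left out instead, which kept the library that stood apart, 72 of the 89 were above 0, where 52.9% of all genes were.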

How the data were processed

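The deposited table held raw counts per gene, 1 column per embryo, without normalization. The authors purified polyadenylated RNA, built stranded libraries, summed repeated single-end runs and counted reads per Ensembl gene of GRCm38. Their processing notes list cutadapt 1.11, STAR 2.5.0a and featureCounts 1.4.6-p3, and the methods also name TopHat2, without saying which aligner made this table.

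Groups came from the sample titles. The quasi-likelihood test of edgeR 4.0.16 was applied to genes whose counts summed to at least 10 over the 6 embryos (R 4.3.3, TMM factors, genotype as the only term, two-sided), with p-values adjusted by Benjamini and Hochberg over all genes and 0.05 as threshold. The script was tested on simulated counts. Scaled CPM are descriptive, 0.5 was added before logs, and error is SD over embryos or SE of the fit. Depth was 61724000 to 91782802 counts per embryo. Counting error is small beside the spread between embryos. GENCODE M21 gave positions, exon length and GC content.

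The 40 genes, the wider and marker lists and the tests were chosen with earlier results of these data known. Bahd1, the most abundant and the smallest-p gene of each role group, genes that change sign without Bahd1-KO replicate 3 and the 2 smallest p in each direction of the wider list were named by rule. Other genes and the 3 printed promoters were chosen after their values were seen. Alternatives covered filters, factors, DESeq2 1.42.0, limma 3.58.1 voom with quality weights, the replicate block, each embryo left out, and, chosen after seeing the data, a lowess correction for GC (span 0.3).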

Additional observations from a re-analysis of the deposited data

How the results depend on the processing

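None of the 40 genes, and none of the wider list, was called under any of the 20 alternatives run. The number of all genes called was 1 in the main fit. It became 0 with a minimum of 10 counts in each embryo, a filter that removed Bahd1 before testing (2, 10 and 6 reads in Bahd1-KO). It became 0 with the replicate block, 6 with limma voom, 8 with DESeq2 and 0 to 4 with an embryo left out. Without Bahd1-KO replicate 3 it was 11 with DESeq2, 16 with the block and 6 with the GC correction. Replicate numbers did not pair the embryos (correlation of deviations 0.125, 0.176 and -0.0879 for numbers 1 to 3), and not every embryo correlated best with its own number. With the block and without Bahd1-KO replicate 3, 30 of the 40 were above 0 (46.9% of all genes), with a median of 0.14. There 5 of the 40 (12.5%) and 23 of the 89 other genes had an unadjusted edgeR p under 0.05, as did 9.3% of all genes. In that fit Bahd1-WT replicate 3 had no partner in its block, so the genotypes were compared only through replicates 1 and 2. Bahd1 gave -8.49 with the block (edgeR adjusted p = 0.229) and -8.78 to -8.01 with an embryo left out, and kept its call only without Bahd1-KO replicate 3, the adjusted p being 0.107, 0.208, 0.296, 0.655 and 0.685 without Bahd1-KO replicates 1 and 2 and Bahd1-WT replicates 1, 2 and 3. Non-overlapping genes among the 40 numbered 2 with upper-quartile factors (Ccnd1 and Ccne1, against 6.82% of all genes) and 0 to 12 with an embryo left out. The 12 came without Bahd1-KO replicate 2. Without Bahd1-WT replicates 3 and 1 there were 8 (11.9% of all genes) and 4 (30.1%), and without Bahd1-KO replicate 1 there were 2 (16.1%).

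With the GC correction and without Bahd1-KO replicate 3, 9 of the 40 were above 0, where 47.8% of all genes were. The medians were -0.074 for the 40 and -0.044 for the wider list. Signs turned as follows, on the log2 scale. Mcm6 was -0.10 with total counts, -0.031 to 0.23 with an embryo left out (the lowest without Bahd1-KO replicate 3), -0.032 with DESeq2 without that embryo and -0.085 with the GC correction without it. Ccnd2 was 0.0057 with voom, -0.57 to 0.034 with an embryo left out (the highest without Bahd1-KO replicate 3), 0.036 with DESeq2 without that embryo and 0.095 with the block without it. Bub1b was -0.034 to 0.77 with an embryo left out (the lowest without Bahd1-KO replicate 3) and -0.036 with DESeq2 without it. Rrm1 was -0.028 with the GC correction, and Rrm1, Ccne2 and Cenpf were -0.098, -0.087 and -0.023 with it and without Bahd1-KO replicate 3. The causes were not tested. The median of all genes was 0.060 with TMM, 0.17 with upper-quartile factors and -0.11 with total counts, and 29, 32 and 24 of the 40 were above 0.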

Other observations

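Regulators of the cycle outside the 40 genes gave mixed values. Of 9 inhibitors and pocket proteins, 5 were above 0 and 4 below, with a median log2 fold change of 0.0017 (0.068, with 6 of 9 above 0, without Bahd1-KO replicate 3), and 0 passed the test. Cdkn1c, an inhibitor of cyclin-dependent kinases, was at 100, 117 and 263 scaled CPM in Bahd1-KO and at 83.0, 78.1 and 103 in Bahd1-WT. Bahd1-KO replicate 3 was thus the highest embryo for this inhibitor as well as for Mki67. Over the 9 genes it was the highest for 4 and the lowest for 5, among the latter the inhibitors Cdkn1a, Cdkn1b and Cdkn2d. Rb1, the retinoblastoma pocket protein, was at 185, 124 and 65.5 in Bahd1-KO and at 157, 109 and 107 in Bahd1-WT, and Rbl1, its relative, at 32.7, 18.5 and 55.5 against 23.7, 18.6 and 23.2. The same embryo was thus the lowest for Rb1 and the highest for Rbl1. Fzr1, which directs the anaphase-promoting complex in G1, was at 15.0, 52.2 and 9.05 in Bahd1-KO and at 28.6, 63.6 and 70.8 in Bahd1-WT.

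Of 8 E2F, MYB and DREAM factors, 5 were above 0, with a median of 0.38, and 2 without Bahd1-KO replicate 3, with a median of -0.12. E2f2 was at 18.2 in Bahd1-KO replicate 3 and between 3.19 and 7.32 in the other 5 embryos, while E2f3 was between 25.1 and 31.9 in all 6. Anln, the anillin of the cleavage furrow, was at 24.4, 16.7 and 127 in Bahd1-KO and at 19.5, 16.7 and 20.1 in Bahd1-WT, which put Bahd1-KO replicate 3 at 6.54 times the mean of the others. These genes were chosen after their values were seen.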
